A study of Rattus norvegicus with 10 samples.

Results

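The CCN family of matricellular genes was examined in mammary tumours of female Sprague-Dawley rats, which had each been given DMBA (7,12-dimethylbenz(a)anthracene, a carcinogen) as 1 oral dose of 100 mg/kg. Its 6 members, Ccn1 to Ccn6, were found by symbol: every probe set of the array whose platform annotation names exactly 1 gene, that gene being a member, was taken. This gave 6 of 31042 non-control probe sets, 1 for each gene, among 14217 genes named on the array (older names Cyr61, Ctgf, Nov, Wisp1, Wisp2 and Wisp3). The family itself was selected on the final against basal differences measured on these arrays, and its members by name. All 5 tumours were of Bloom-Richardson grade II and each was sampled at 2 moments, giving 10 arrays. The basal group (5 arrays) holds Trucut needle biopsies taken at 12 weeks of age from tumours of 2 cm3, before any treatment. The final group (5 arrays) holds the same 5 tumours at sacrifice, at 19 weeks of age, in the 7th week after the biopsy, following 6 weeks of hydroxytyrosol, a phenol of olive oil, in gavage doses of 0.5 mg/kg, 5 per week. Every animal of both groups had received DMBA, and no group of untreated tumours at the later age was analysed here. Hydroxytyrosol, age, tumour growth and the interval since the biopsy therefore cannot be told apart in the comparison of final with basal samples. The sample labels call the final piece a total tumour while the design text calls it a Trucut sample. The labels do not say whether any of the 5 tumours shared a rat, so the p-values measure the spread of the final minus basal differences over these tumours.

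CCN proteins are secreted into the extracellular matrix, where they bind integrins, heparan sulphate proteoglycans and growth factors and change how cells respond to them. Ccn1 and Ccn2 are induced rapidly by serum, transforming growth factor beta (TGF-beta) and mechanical load, and are widely used readouts of the Hippo pathway, in which the coactivators YAP and TAZ act through TEAD transcription factors. Ccn3 binds Notch1 and often opposes Ccn2, Ccn4 and Ccn5 were found as genes switched on in mammary epithelial cells transformed by Wnt1, and Ccn5, which lacks the C-terminal module of the other members, is induced by oestrogen in breast cancer cells. Ccn6 is best known for its role in cartilage.

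The sequences upstream of Ccn1 and Ccn2 are shown because TEAD factors are known to act on both genes, the usual readouts of the Hippo pathway, whose other genes are described further on. RefSeq promoters (build GRCr8) matched 3 of the 6 members, Ccn1, Ccn2 and Ccn6. The 250 bases before the annotated start are given 5′ to 3′ on the minus strand, with each match to the TEAD motif GGAATG, on either strand, in capitals. Ccn1 lies at chr2:237225690-237225939 and Ccn2 at chr1:22624615-22624864.
Ccn1: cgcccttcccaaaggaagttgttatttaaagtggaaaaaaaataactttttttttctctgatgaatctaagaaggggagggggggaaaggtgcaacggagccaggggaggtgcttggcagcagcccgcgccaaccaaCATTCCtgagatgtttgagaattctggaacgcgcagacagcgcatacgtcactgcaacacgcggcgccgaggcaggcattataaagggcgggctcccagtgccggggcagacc
Ccn2: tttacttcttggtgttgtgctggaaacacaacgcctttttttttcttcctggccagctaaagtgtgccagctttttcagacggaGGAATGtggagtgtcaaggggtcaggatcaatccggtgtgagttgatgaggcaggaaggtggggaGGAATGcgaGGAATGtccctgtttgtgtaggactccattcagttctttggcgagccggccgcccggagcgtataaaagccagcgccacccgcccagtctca

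Ccn2 held 3 TEAD matches, all on its own strand, and Ccn1 held 1, on the opposite strand. Of 33469 promoter windows of the same length, 4037 (12.1%) held at least 1 match and 27 (0.0807%) held 3 or more. The window of Ccn6 held 0 TEAD matches. The SMAD motif CAGAC, read on both strands, matched 2 times in Ccn1, 1 time in Ccn2 and 2 times in Ccn6, and at least 1 time in 42.9% of windows. The TATA motif TATAAA, read on the strand of the gene, matched 1 time in Ccn1 and 1 time in Ccn2, and in 8.06% of windows. The AP-1 motif TGANTCA and the CArG box of serum response factor had 0 matches in the 3 windows, against 6.34% and 1.50% of all windows with at least 1. Matches of different motifs did not overlap each other, and a match is a string of letters, not a measured site of binding.

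**Figure D1:**
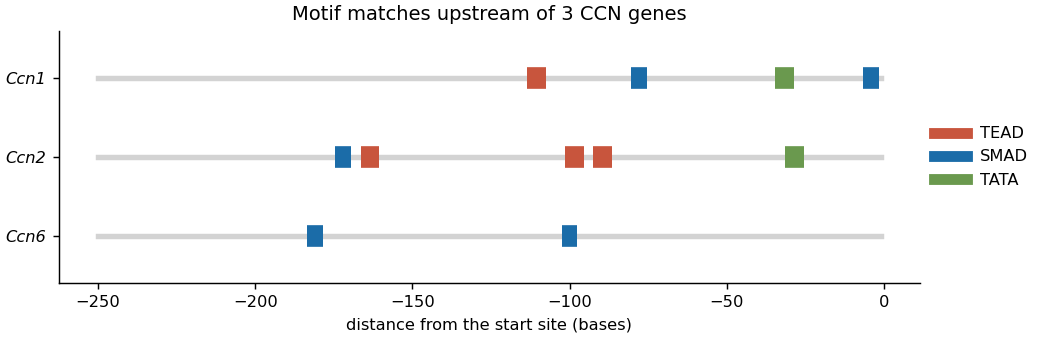
Positions of motif matches in the 250 bases before the annotated start of Ccn1, Ccn2 and Ccn6, with the distance from the start in bases on the horizontal axis and 1 line for each gene. Coloured blocks are matches to the TEAD, SMAD and TATA motifs; Ccn2 carries 3 TEAD blocks, Ccn1 carries 1 and Ccn6 carries 0.

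Values are deposited Robust Multichip Average (RMA) signals, read as log2, so a difference of 1 is a doubling of signal. Signals of different probe sets are not on a common scale, so levels of different genes are not compared, only their differences between final and basal samples. A signal is called dim below 5.14, the level under which the dimmest 40% of probe sets lay, and the BioB spike-in, used by the study to judge sensitivity, averaged 8.04. Over tested probe sets, array medians averaged 7.75 ± 0.05 (SD, n = 5 basal arrays) and 7.77 ± 0.02 (SD, n = 5 final arrays). Luminal epithelial markers, which define the labelled tissue, were all 9 above BioB, with an array mean over the list between 10.99 and 11.51 in basal and between 10.99 and 11.50 in final arrays. Of 9 myoepithelial and smooth muscle markers 8 were measured, and 7 lay above BioB. The 3′ minus 5′ signal of the hexokinase control, larger in RNA that is broken or poorly labelled, averaged 1.57 ± 0.59 (SD, n = 5 basal arrays) and 1.02 ± 0.08 (SD, n = 5 final arrays), and its highest values were 2.36 and 2.03, in the biopsies of 45D3 and 67D3. The pair of 45D3 stood apart from the others. Its 2 arrays deviated from their group means with a correlation of -0.16 over probe sets, against 0.17 to 0.72 in the other tumours, and its final array was most like the biopsy of 51I1, while the other 4 final arrays were each most like their own biopsy. Values without 45D3 are therefore given for the members.

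Of the 6 members, 5 had a mean signal above the dim level and were among the 18625 probe sets tested, and Ccn6 did not. Since the family was selected on this contrast, the members' differences below are a description with no test. Over all tested probe sets 0 passed a Benjamini-Hochberg adjusted p of 0.05 (limma, tumour as a block; 0% called), so 0 of the 5 members passed. An unadjusted p under 0.05 was reached by 1494 probe sets (8.02%). The methods' t-test gave 1394 unadjusted (7.48%) and 0 adjusted.

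Among the members, Ccn5 and Ccn3 were the ones whose mean signal was higher in final samples by more than 1 log2 unit, as 118 tested probe sets (0.634%) were by at least that much. Each was higher in 4 of 5 tumours and lower in 45D3, and 21.3% of tested probe sets were higher in at least 4 tumours. Ccn2 and Ccn4 were lower in 4 of 5 tumours, and 25.2% of tested probe sets were lower in at least 4. Of the 5 tested members, 0 moved one way in all 5 tumours (3.96% of tested probe sets were higher and 4.75% lower in all 5), and 0 had groups that did not overlap (1.24%).

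Ccn5, a family member that lacks the C-terminal module and is described as a restraint on the growth and motility of breast cancer cells, had basal signals of 5.58 in 66D2, 4.80 in 49I1, 5.28 in 51I1, 5.76 in 67D3 and 6.38 in 45D3. Its final signals were 8.14, 7.65, 7.76, 7.41 and 5.96 in the same order. All 5 biopsies were low, 1 of them below the dim level, and 45D3 had the highest of them. In final samples 4 tumours stood at 7.41 or above, and 45D3 stood alone at the low end, within the basal range. Biopsies averaged 5.56 ± 0.58 (SD, n = 5) and final samples 7.38 ± 0.84 (SD, n = 5), a difference of 1.82 (SE 0.59) on the log2 scale, the 36th highest of the tested probe sets. By tumour the difference was 2.55 in 66D2, 2.85 in 49I1, 2.47 in 51I1, 1.65 in 67D3 and -0.41 in 45D3. Without 45D3 it was 2.38, the final mean was 7.74 and the SD of the final signals was 0.30. A single final signal, that of 66D2, lay above BioB, and the biopsy below the dim level was that of 49I1.

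Ccn3, the Notch1-binding member, had basal signals of 7.96 in 66D2, 7.91 in 49I1, 8.33 in 51I1, 7.42 in 67D3 and 8.95 in 45D3. Its final signals were 10.60, 10.25, 10.19, 7.49 and 8.29 in that order. The final samples parted into 3 tumours above 10 and 2 tumours, 67D3 and 45D3, that stayed within the range of the biopsies. Biopsies averaged 8.12 ± 0.57 (SD, n = 5) and final samples 9.36 ± 1.38 (SD, n = 5), a log2 difference of 1.25 (SE 0.65), the 76th highest of the tested probe sets. By tumour the difference was 2.63 in 66D2, 2.34 in 49I1, 1.85 in 51I1, 0.06 in 67D3 and -0.66 in 45D3, and without 45D3 the mean difference was 1.72. The final SD of Ccn3 exceeded that of 98.9% of tested probe sets, while its basal SD exceeded that of 86.9%.

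Ccn3 and Ccn5 shared the direction in every tumour, with both lower in 45D3, but 67D3 set them apart: there Ccn5 was 1.65 higher and Ccn3 0.06 higher. Over the 10 arrays their signals had a Pearson correlation of 0.73, the highest of the 15 pairs of members; the arrays are 5 tumours sampled 2 times each and share 1 normalization, so this is a description. Ccn1 was dim on 8 arrays and Ccn6 on all 10, so correlations with these 2 genes are not read. Among Ccn2 to Ccn5 the next pair was Ccn2 with Ccn4 (0.38), and the most negative was Ccn4 with Ccn5 (-0.28).

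Ccn2, formerly connective tissue growth factor, had signals well above BioB on every array, close together in the biopsies and wider apart in the final samples. Its basal signals were 12.25 in 66D2, 11.97 in 49I1, 12.30 in 51I1, 12.33 in 67D3 and 12.38 in 45D3, and its final signals were 12.21, 12.23, 12.13, 11.69 and 11.41. The 10 arrays spanned 0.96 log2 units, all of them above BioB, with the final samples of 45D3 and 67D3 as the lowest. Biopsies averaged 12.24 ± 0.16 (SD, n = 5) and final samples 11.93 ± 0.37 (SD, n = 5), a difference of -0.31 (SE 0.22). Its basal SD was larger than that of 23.2% of tested probe sets and its final SD larger than that of 71.4%. Without 45D3 the difference was -0.14.

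Ccn1, formerly Cyr61, was measured at a high level in 1 tumour. The biopsy of 67D3 had a signal of 9.20 and its final sample 8.22, both above BioB. The other 4 biopsies read 4.56 in 66D2, 4.88 in 45D3, 4.53 in 49I1 and 4.66 in 51I1, and the final samples of the same tumours 4.83, 4.23, 4.59 and 4.50. All 8 of these signals lay below the dim level, so Ccn1 passed the filter on dim probe sets only through 67D3, and an order among the other 4 tumours cannot be read. The group means of 5.57 ± 2.04 (SD, n = 5 biopsies) and 5.27 ± 1.66 (SD, n = 5 final samples) therefore describe no tumour. Without 67D3 they were 4.66 ± 0.16 (SD, n = 4) and 4.54 ± 0.25 (SD, n = 4). The basal SD over 5 tumours was larger than that of 99.8% of tested probe sets and the final SD larger than that of 99.5%. The difference was -0.29 (SE 0.23), -0.12 without 67D3 and -0.20 without 45D3.

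Ccn4, the Wnt1-inducible member expressed by stromal fibroblasts, had basal signals of 6.91 in 66D2, 7.33 in 49I1, 7.91 in 51I1, 6.83 in 67D3 and 6.11 in 45D3. Its final signals were 6.84, 6.42, 6.92, 6.91 and 5.66. All 10 lay above the dim level and below BioB, and 45D3 was the lowest tumour in both groups. The difference was -0.92 in 49I1 and -0.99 in 51I1, the 2 tumours with the highest biopsies, -0.45 in 45D3, -0.07 in 66D2 and 0.08 in 67D3. Biopsies averaged 7.02 ± 0.66 (SD, n = 5) and final samples 6.55 ± 0.54 (SD, n = 5), a difference of -0.47 (SE 0.22), which was -0.47 without 45D3 too. Ccn6 gave signals from 3.13 to 3.59 in basal and from 3.37 to 3.78 in final samples, below the dim level on all 10 arrays, so its level was not shown to be above background and its difference of 0.12 (SE 0.12) cannot be read as a change.

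**Figure D2:**
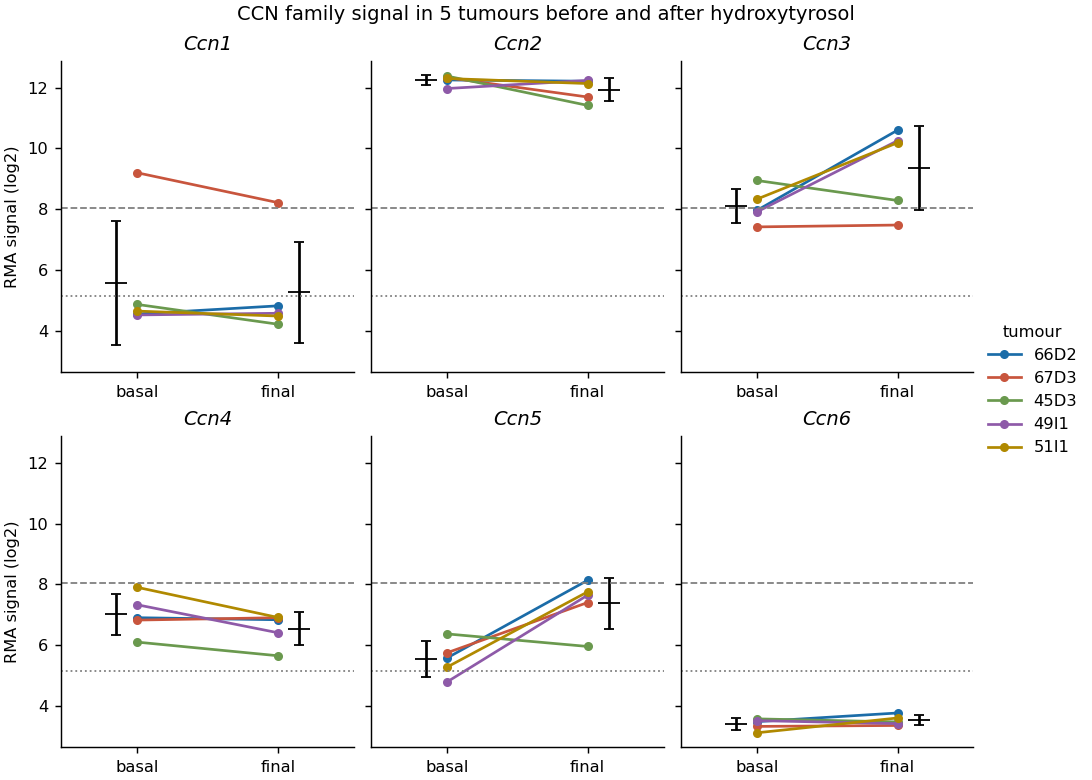
RMA signal on the log2 scale of each CCN gene in basal and final arrays, 1 coloured line for each of the 5 tumours. Black bars are group means with SD, the dotted line is the dim level (5.14) and the dashed line the BioB mean (8.04); Ccn5 and Ccn3 differ most between the groups, and Ccn1 is high in 67D3 alone.

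Across tumours, only 45D3 had lower Ccn3 and Ccn5 in its final sample, though Ccn3 in 67D3 was higher by only 0.06. Fibroblast markers were lower in 45D3 too, while its luminal markers were not (median difference 0.16). The median difference of 9 fibroblast markers was -1.41 in 45D3, and 1.48 in 66D2, 1.43 in 67D3, 0.60 in 49I1 and 1.02 in 51I1. Of the 9 markers 9 were higher in the mean, 1 at an unadjusted p under 0.05 (8.02% of all tested probe sets) and 0 after adjustment (limma). Their median was 0.65, against -0.00031 over all tested probe sets. Col3a1 and Col1a2, fibrillar collagen chains, differed by 0.59 (SE 0.52) and 0.61 (SE 0.56), Pdgfra, a receptor of fibroblasts, by 1.09 (SE 0.87) and Fap, a surface protease of activated fibroblasts, by 1.02 (SE 0.37). The array mean of the list ranged from 9.07 to 10.45 in basal and from 8.94 to 11.17 in final arrays, and 0 of its 9 markers were dim. Their part in the values of Ccn3 and Ccn5 was not tested. In bulk tissue, fewer cells of a type and less RNA per cell cannot be told apart.

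The hexokinase 3′ minus 5′ signal also moved, by amounts that differed between tumours. From basal to final it changed by 0.11 in 66D2, -0.09 in 49I1 and -0.27 in 51I1, the 3 tumours in which Ccn3 was at least 1.85 higher. It changed by -1.02 in 67D3 and -1.47 in 45D3, where Ccn3 differed by 0.06 and -0.66. The order of the 5 tumours by this change was the order of their Ccn3 differences. It was not the order of their Ccn5 differences, which were 2.55 in 66D2 and 2.85 in 49I1. The part of the hexokinase signal in the values of Ccn3 and Ccn5 was not tested. With the hexokinase signal as a covariate, an alternative chosen with earlier results of these data known, Ccn3 differed by 2.44 (SE 0.12) and Ccn5 by 2.83 (SE 0.27). In that fit 2 of 18625 probe sets (0.0107%) passed the adjusted threshold of limma, Ccn3 and an unnamed one; since the family was selected on this contrast, nothing is read from that call. Ccn1 and Ccn2 changed sign in the same fit, to 0.08 (SE 0.16) and 0.07 (SE 0.13).

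**Figure D3:**
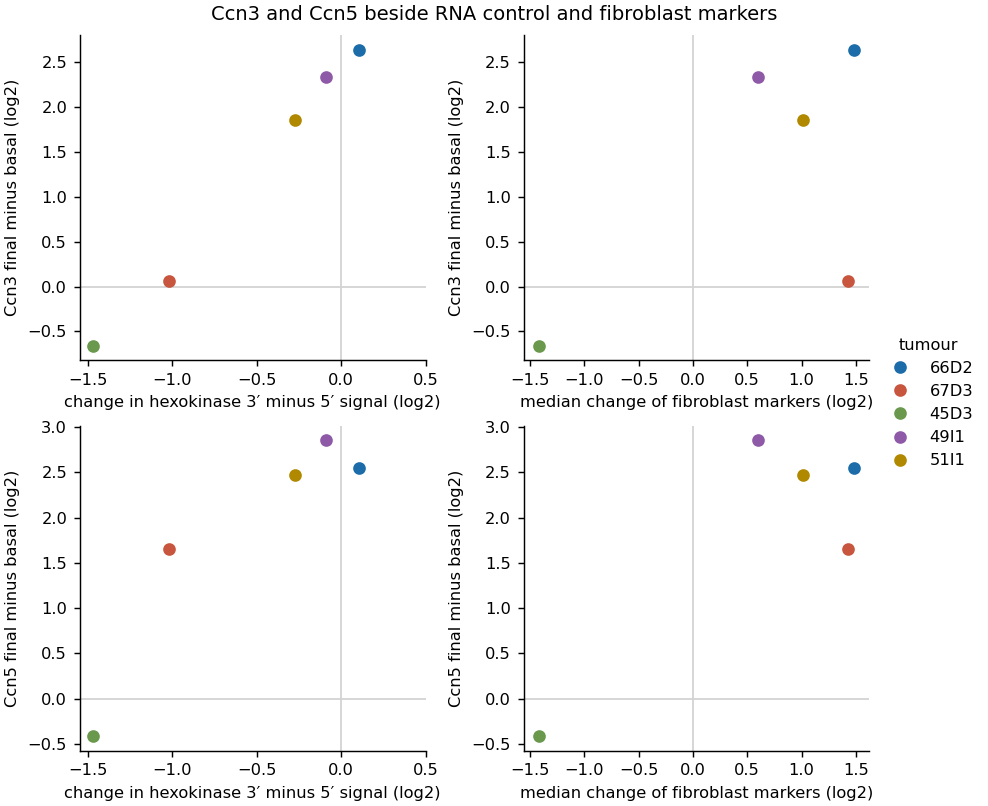
Final minus basal difference of Ccn3 (top) and Ccn5 (bottom) in log2 units against the change of the hexokinase 3′ minus 5′ signal (left) and the median change of 9 fibroblast markers (right), both in log2 units, 1 point for each of the 5 tumours. Tumour 45D3 lies lowest on both axes of all 4 panels, and 67D3, with the second lowest hexokinase change, has a Ccn3 difference of 0.06 at a fibroblast median of 1.43.

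Signs of other tissue moved with the final samples too. The median difference of 8 measured skeletal muscle markers was 4.36 in 66D2, 2.12 in 49I1, 0.26 in 51I1, 6.70 in 67D3 and 0.20 in 45D3. Of these markers 4, Ckm, Mb, Tnnt3 and Actn3, had a dim basal mean and passed the dim filter only through the final samples, so no count of higher markers is given for the list. The array mean of that list ranged from 5.45 to 6.26 in basal and from 5.65 to 11.89 in final arrays, and Acta1, skeletal muscle actin, differed by 3.95 (SE 1.49). With the muscle median as a covariate Ccn5 differed by 1.49 (SE 0.74), Ccn3 by 1.32 (SE 0.84) and Ccn4 by -0.85 (SE 0.22). Adipocyte markers, 4 tested of 7 measured, had a median difference of 3.94 in 51I1, 2.02 in 67D3, 0.67 in 66D2, 0.03 in 49I1 and -1.47 in 45D3, with array means from 6.03 to 7.87 in basal and from 6.33 to 9.96 in final arrays, the other 3 measured were dim, and Adipoq had a dim basal mean. Endothelial markers, 8 tested, had a median of 1.52 in 51I1, 1.16 in 66D2, 0.62 in 67D3, -0.28 in 49I1 and -0.85 in 45D3, with array means from 6.71 to 8.05 in basal and from 7.22 to 8.66 in final arrays. Macrophage markers, also 8, had a median of 1.06 in 51I1, 0.82 in 66D2, -0.54 in 49I1, -0.79 in 45D3 and -0.86 in 67D3; 4 were higher and 4 lower in the mean over tumours, with array means from 8.35 to 9.43 in basal and from 8.49 to 10.29 in final arrays. The part of adipocyte, endothelial and macrophage markers in the members' values was not tested.

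**Figure D4:**
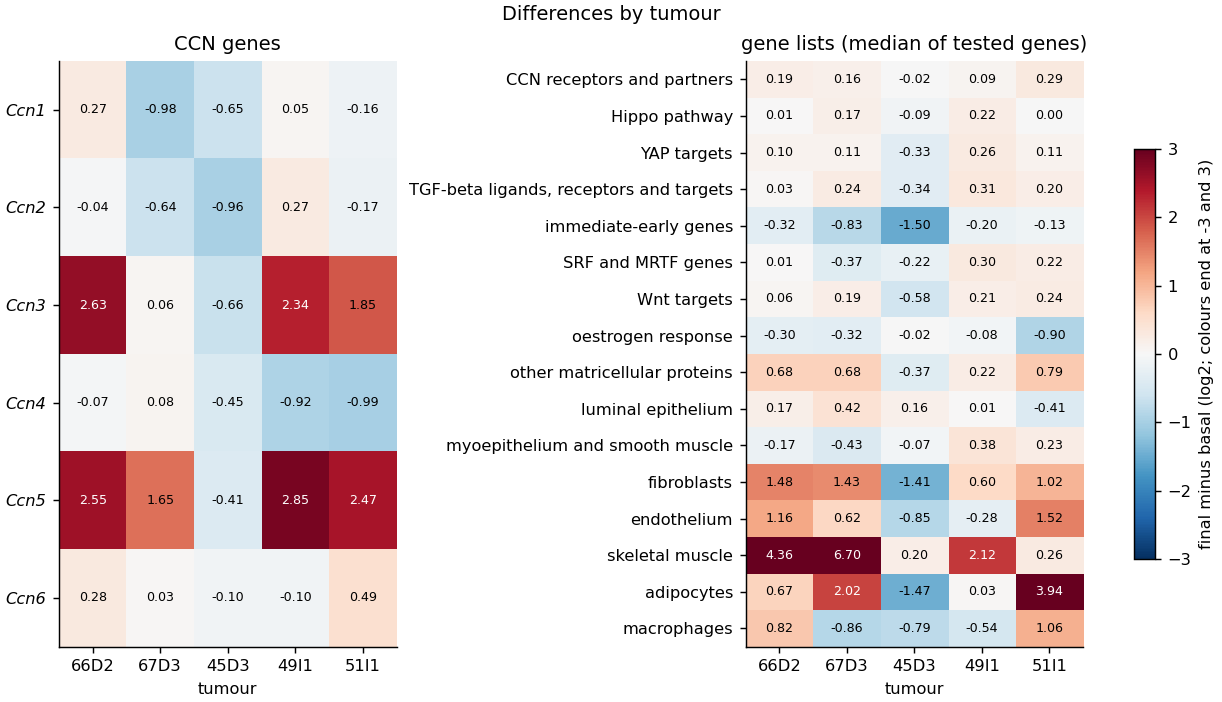
Final minus basal differences in log2 units by tumour, for the 6 CCN genes (left) and as the median of the tested genes of each list (right), with the value printed in each cell and colours saturated at the ends of the scale. Ccn3 is at least 1.85 in 66D2, 49I1 and 51I1, Ccn5 is at least 1.65 in every tumour but 45D3, and the fibroblast, adipocyte and endothelial medians are lowest in 45D3.

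The genes around the family were followed in lists, in which 0 members passed the adjusted threshold (limma, 0% of tested probe sets called). The surface partners came first. Of 15 CCN receptors and partners 14 were tested, 12 were higher and 2 lower in the mean, and 0 had an unadjusted p under 0.05 (8.02% of all tested probe sets), with a median of 0.17. Notch1, the receptor bound by Ccn3, differed by 0.34 (SE 0.15). It was among the 3 of 14 tested genes of this list that were higher in 5 of 5 tumours (3.96% of all tested probe sets). Lrp1, an endocytic receptor of Ccn2, differed by 0.48 (SE 0.37). Cd9, a tetraspanin, and Sdc4, a heparan sulphate proteoglycan, differed by -0.06 (SE 0.04) and -0.15 (SE 0.07).

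Upstream of Ccn1 and Ccn2, 13 of 16 Hippo pathway genes were tested, 7 higher and 6 lower in the mean, with a median of 0.03 and 0 at an unadjusted p under 0.05. Tead1, a DNA-binding partner of YAP, differed by 0.03 (SE 0.06) and Nf2, an upstream suppressor, by -0.02 (SE 0.14). Tead2 differed by -0.22 (SE 0.17) and the kinase Lats2 by 0.22 (SE 0.35). Of 20 further YAP targets 18 were tested, 13 higher and 5 lower, with a median of 0.11. Fjx1, a secreted YAP target, was the 1 member at an unadjusted p under 0.05 (limma; 8.02% of all tested probe sets). It differed by 0.36 (SE 0.09), with higher signals in 5 of 5 tumours. Igfbp3, a binding protein of insulin-like growth factors, differed by -0.41 (SE 0.28) and Amotl1 by 0.08 (SE 0.07). Ccn2 (-0.31) had the sign of the minority of this list, and in 45D3, where Ccn2 differed by -0.96, the list median was -0.33. Yap1 itself was not measured, and the part of YAP in the values of Ccn2 was not tested.

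Of 16 genes of TGF-beta signalling, which induces Ccn2, 14 were tested, 10 higher and 4 lower, with a median of 0.06 and 0 at an unadjusted p under 0.05. The targets Pmepa1 and Skil differed by -0.07 (SE 0.29) and -0.01 (SE 0.20), Id1 by 0.38 (SE 0.77) and the ligand Tgfb1 by 0.27 (SE 0.16). Immediate-early genes, the class to which Ccn1 and Ccn2 belong by their rapid induction, had a median difference of -0.60 over 16 tested genes. Of these, Fosb and Fosl1 had a dim final mean and passed the dim filter only through the biopsies. No count of lower genes is therefore given for the list. Ier3 differed by -0.92 (SE 0.19), Egr1 by -0.54 (SE 0.40), Fosb by -1.72 (SE 0.80) and Atf3 by -1.34 (SE 0.40). The immediate-early median was lowest in 45D3 (-1.50) and 67D3 (-0.83), the 2 tumours in which Ccn2 was lowest after treatment. The hexokinase 3′ minus 5′ change was also lowest in these tumours (-1.47 and -1.02), and its part in the immediate-early values was not tested. Genes of serum response factor and its MRTF coactivators, which also drive Ccn1 and Ccn2, were mixed in direction, 5 higher and 6 lower of 11 tested. Of the lower ones 2 had an unadjusted p under 0.05 (limma, against 8.02% of all tested probe sets), and 0 of the higher ones did. Actn1 at -0.31 (SE 0.08) and Fhl2 at -0.30 (SE 0.11) were lower in 5 of 5 tumours (4.75% of all tested probe sets). Tagln differed by 0.11 (SE 0.15) and Tpm1 by 0.01 (SE 0.16).

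For Ccn4 and Ccn5 the Wnt and oestrogen lists bear on known inducers. Of 12 Wnt targets 8 were tested, 4 higher and 4 lower, with a median of 0.01 and 0 at an unadjusted p under 0.05. Lef1 and Tcf7, transcription factors of the pathway, differed by -0.36 (SE 0.31) and 0.03 (SE 0.22), and Bmp4 by 0.87 (SE 0.60). Bmp4, counted among the higher genes, had a dim basal mean of 5.01 and passed the dim filter only through the final samples. Of 10 oestrogen response genes 9 were tested, 2 higher and 7 lower, with a median of -0.29. Of the lower ones 3 had an unadjusted p under 0.05 (limma; 8.02% of all tested probe sets). Esr1, an oestrogen receptor, was dim (mean 4.60) and was left out. Areg, an epidermal growth factor receptor ligand, differed by -0.53 (SE 0.21), Xbp1 by -0.29 (SE 0.05) and Greb1 by -0.61 (SE 0.63). The part of either list in the values of Ccn4 and Ccn5 was not tested. Among other matricellular proteins 10 of 14 were tested, 8 higher and 2 lower, with a median of 0.43. Of the higher ones 2 had an unadjusted p under 0.05 (limma; 8.02% of all tested probe sets). Postn differed by 0.42 (SE 0.12) and was higher in 5 of 5 tumours. Thbs2 differed by 0.97 (SE 0.68), the elastic fibre protein Fbln5 by 0.72 (SE 0.57) and Mgp by 0.19 (SE 0.33).

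Over the 10 arrays, the genes whose signal was most like that of each tested member were taken as the 5 with the highest Pearson correlation among 10834 other genes. For Ccn5 these were Plpp1, a lipid phosphate phosphatase (0.90), Pcsk6, a proprotein convertase (0.89), the small GTPase Rnd2 (0.89), Prf1, perforin (0.89), and Adamts5, a protease that cleaves proteoglycans of the matrix (0.88). Prf1 had a dim basal mean and passed the dim filter only through the final samples. Adamts5 differed by 1.74 and Pcsk6 by 1.40 between final and basal means, each higher in 4 of 5 tumours. Pcsk6 lay below the dim level in the biopsies of 66D2, 49I1 and 51I1 and in the final sample of 45D3. The size of its difference is therefore uncertain. For Ccn3 they were Fibin (0.94), the chemokine receptor Ccr6 (0.91), the complement regulator Cr1l (0.91), Tmem178a (0.90) and the signalling adaptor Traf1 (0.90). Ccr6 and Tmem178a had dim basal means (5.08 and 4.70) and passed the dim filter only through the final samples. Fibin averaged 6.81 ± 0.28 (SD, n = 5) before and 7.93 ± 1.33 (SD, n = 5) after treatment, and was higher in 3 of 5 tumours. A difference between the groups that 2 genes share is enough to give such values.

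For Ccn1 the nearest genes were Ucp3 (0.95), Cbln2 (0.94), Plcl1 (0.92), Smim3 (0.92) and Large2 (0.91). These values rested on 67D3: without its 2 arrays they were 0.37, 0.29, -0.33, 0.53 and 0.02. Large2, a glycosyltransferase, ranged from 8.09 to 9.50, and Ucp3, a mitochondrial uncoupling protein, from 5.74 to 7.43. For Ccn2 they were Nfyc, a subunit of the CCAAT-binding factor NF-Y (0.95), Mt3 (0.94), Pyroxd2 (0.90), Ncoa7 (0.88) and Dhrs1 (0.85), of which Ncoa7 differed by -0.24. For Ccn4 they were Megf6 (0.94), Ssr3, a subunit of the translocon-associated complex (0.89), Plaur, the urokinase receptor (0.88), Rab3b (0.88) and Zfp639 (0.86). Ssr3 differed by -0.15 and was higher in 0 of 5 tumours. Rab3b had a dim final mean.

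**Figure D5:**
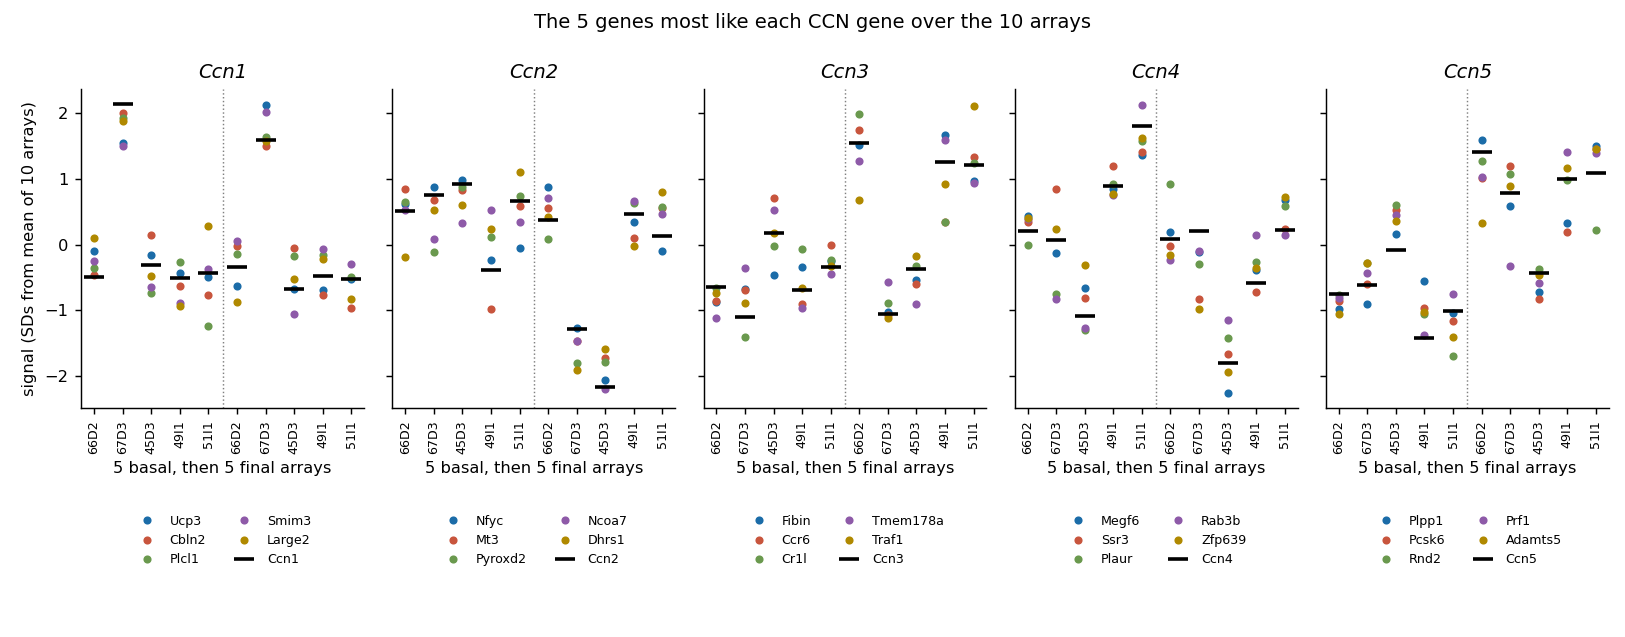
Signal of Ccn1 to Ccn5 (black bars) and of the 5 genes most like each (coloured points) on the 5 basal and then the 5 final arrays, in SDs from each gene's mean over the 10 arrays. Ccn1 and its 5 genes are high on the 2 arrays of 67D3, and Ccn5 and its 5 genes are lower in the final array of 45D3 than in those of 66D2.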

How the data were processed

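RNA from 10 tumour samples was hybridised to Affymetrix rat arrays. RMA was the authors' normalization of the intensities (per the submitters' processing notes and the design text, neither naming a version). The deposited values look like log2 from their range and were treated so. They still held 57 control probe sets, and signals as low as those of Ccn6 (3.13 to 3.78), so the authors' dim filter did not appear to have been applied. RMA equalises arrays, so a change in total RNA would not show, and the arrays' number limits precision.

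Probe sets were named by the 2016 platform annotation: of 31042 non-control sets 20826 had 1 symbol, 436 several and 9780 none. The dimmest 40% were left out, keeping 18625. Limma 3.58.1 in R 4.3.3 (lmFit, eBayes) was fitted to all of them with the tumour as a block, whose identifier the labels repeat on its 2 samples; same-tumour deviations correlated between -0.16 (45D3) and 0.72 across probe sets, with a mean of 0.30, and 4 of 5 final arrays were most like their own biopsy. On simulated data of 18625 probe sets for this comparison it recovered 63% of log2 changes of 1 and 89% of changes of 2. The changed probe sets were drawn at random, with independent normal noise at each one's own residual spread. These shares do not carry over to Ccn5 and Ccn3, whose differences had SDs of 1.33 and 1.46 over the tumours.

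The members and lists were chosen with earlier results of these data known. From each list the text names the 2 tested genes of highest mean signal and the 2 with the largest absolute difference, each gene by its brightest probe set, and for each tested member the 5 genes most correlated over the arrays. Alternatives were the block, each tumour left out, normalization, dim filters, a floor at the dim level, hexokinase and skeletal muscle covariates and the methods' paired test.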

Additional observations from a re-analysis of the deposited data

Results flagged for a closer look

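In groups of 5 values, the gap between the highest or lowest value and its neighbour was compared with Dixon's limit; 34 groups were examined, 4 passed, and chance alone passes about 1 group in 20. The basal signal of Ccn1 in tumour 67D3 (9.20) and its final signal there (8.22) stood far above the other 4 tumours in each group. In 45D3 the median difference of YAP targets (-0.33) and that of Wnt targets (-0.58) stood below the other 4 tumours.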

How the results depend on the processing

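The differences of the 6 CCN genes were recomputed under 11 alternatives each, and all moved by less than 1 SD of the differences between tumours; Ccn1 and Ccn2 changed sign in 1 of them, with the hexokinase covariate (0.08 and 0.07). With 1 tumour left out in turn, Ccn5 ranged from 1.57 to 2.38, Ccn3 from 0.90 to 1.72, Ccn4 from -0.61 to -0.34, Ccn2 from -0.45 to -0.14, Ccn1 from -0.43 to -0.12 and Ccn6 from 0.03 to 0.18. With signals floored at the dim level Ccn5 differed by 1.75 and Ccn1 by -0.20. The count of probe sets past the adjusted threshold of limma was 0 in 12 of 13 alternatives and 2 with the hexokinase covariate; the cause was not tested. At an unadjusted p under 0.05 the count of 1494 became 2564 with the hexokinase covariate, 605 with the skeletal muscle covariate, 2276 with no dim filter, where more probe sets are tested, and 1001 without the tumour block. Leaving out 1 tumour gave from 795 (without 67D3) to 3383 (without 45D3), and 833 without 66D2; the cause was not tested. The mean over several probe sets of a member was not run, since each has 1. Depth is not defined for arrays; Ccn1 outside 67D3 and Ccn6 everywhere lay below the dim level, so the size of their differences there cannot be read, and 1 biopsy lay below it for Ccn5.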
